A study of Mus spretus with 12 samples.

Results

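The 37 genes described here encode liver enzymes that break down amino acids and turn their nitrogen into urea. They were taken by gene name from the spots of the arrays that are not controls. All 37 were found and all 37 were tested, of 18678 genes tested in all. They were read by 62 probes out of 56605, of which 58 passed the filter of being well above background on every array of 1 group or more. None was chosen for how it changed, although the list was drawn up with earlier results of these data known.

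Liver RNA came from male Mus spretus of the SPRET/EiJ strain, which is inbred and derived from wild mice, in 3 groups with 4 single-colour Agilent arrays each. The PXDDE group ate Teklad chow carrying 450 mg/kg of p,p'-DDE for 60 days and drank water with must of Pedro Ximenez grapes, which supplied 85 mg/L of polyphenols and 31 g/L of glucose and fructose in equal parts. The DDE group ate that chow, and its labels mention no must. The control group ate Teklad chow and corn oil alone, and corn oil was also the solvent of the p,p'-DDE, the long-lived breakdown product of the insecticide DDT. All mice were 20 months old when feeding began and 22 months old when sampled, so every group consists of old animals. The sugar came with the polyphenols in every PXDDE mouse, so the parts of the must cannot be told apart. The design text counts 4 mice for the must and the control groups and does not say whether RNA of several mice was pooled, so p-values measure only how far the arrays of a group spread, and that spread may be technical.

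Amino acids lose their nitrogen by transfer to glutamate and aspartate, and the liver then joins the nitrogen into urea in a cycle that starts in mitochondria and ends in the cytosol with arginase. The carbon skeletons feed glucose synthesis, ketone bodies or the citric acid cycle. Several of these enzymes, among them Tat, Tdo2, Sds and Arg1, are known as genes that glucagon, glucocorticoids and dietary protein induce in rodent liver. The enzymes are also zoned across the liver lobule: urea synthesis, Hal and Sds lie mainly around the portal vein, and Oat lies around the central vein beside glutamine synthetase.

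All levels below are log2 of the processed spot signal relative to the 75th percentile of the array, so a level of 0 equals that percentile and a log2 change of 1 is a 2-fold difference. Each gene is represented by its brightest kept probe, and levels are compared between groups and not between probes. A gene was called higher or lower at an adjusted p under 0.05 in a limma fit over all genes. Changes are PXDDE or DDE over its reference, with the standard error of the fit. Per their positions the probes follow the laboratory mouse genome, and differences in Mus spretus under a probe were not checked here. Such a difference would be present in every group.

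The probes of 5 genes whose changes the results turn on are shown because the level of each gene is what these 60 bases captured. They are given as deposited in the scanner files, with mm9 positions and strand, and no part of them is singled out by capitals. The Arg1 probe lies at chr10:24636194-24636253 on the minus strand. The Tdo2 probe lies at chr3:81765359-81765418 on the minus strand. The Hgd probe lies at chr16:37621972-37622031 on the plus strand. The Fah probe spans chr7:91740916-91741732 on the minus strand and the Mut probe chr17:41095817-41097574 on the plus strand. These last stretches are 817 and 1758 bases long for 60 bases of probe, so both probes cross a splice junction and read spliced RNA.
Arg1: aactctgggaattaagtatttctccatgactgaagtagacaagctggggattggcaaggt
Tdo2: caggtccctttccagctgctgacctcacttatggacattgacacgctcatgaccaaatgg
Hgd: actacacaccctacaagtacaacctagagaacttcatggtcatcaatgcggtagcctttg
Fah: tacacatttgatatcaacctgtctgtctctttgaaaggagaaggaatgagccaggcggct
Mut: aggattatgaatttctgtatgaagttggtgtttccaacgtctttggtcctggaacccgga

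The members were well measured. All 37 were well above background on all arrays that measured them, no member spot was saturated, and 1 value was missing because the Gnmt spot on control replicate 3 was marked as an outlier. The median SD within groups was 0.0708 for the members, against 0.109 over all genes tested. The 75th percentile itself was 702.2 ± 7.63 in PXDDE, 610.8 ± 46.9 in DDE and 535.1 ± 32.2 in control (mean ± SD of signal, n = 4 arrays each), and 50.12% to 52.01% of spots were well above background. The size of a small change depended on how the arrays were scaled, and the range over 5 other scalings is given beside the main changes. These are quantile normalisation, median centring, normexp background correction, the last with quantile normalisation (an RMA-like setting), and the deposited values.

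Markers of other cell types differed between the groups, and their part in the results below was not tested. The 12 hepatocyte markers, Alb and Ttr among them, had a summed log2 level of 12.35 to 12.46 in PXDDE, 12.37 to 12.57 in DDE and 12.62 to 12.74 in control livers. Of these, 2 rose and 8 fell in PXDDE against control. Cps1, itself a member of the 37 genes, is among the 12 and was 1 of the 2 that rose. The 14 skeletal muscle markers summed to 7.24 to 7.33 in PXDDE, 7.63 to 7.74 in DDE and 9.04 to 9.08 in control, and all 14 fell in each of DDE and PXDDE against control. The 12 macrophage markers were at 5.95 to 6.03 in PXDDE, 6.36 to 6.45 in DDE and 6.69 to 6.77 in control. The 14 markers of exocrine pancreas were at 11.59 to 11.66 in PXDDE, 9.51 to 9.66 in DDE and 9.88 to 9.98 in control, and all 14 rose in PXDDE against DDE. The 9 adrenal cortex markers were at 7.54 to 7.59 in PXDDE, 7.26 to 7.34 in DDE and 7.31 to 7.48 in control. Their mean log2 level, which the brightest gene does not dominate, was 2.17 in PXDDE, -1.21 in DDE and 1.62 in control, with dim spots set to the lowest well-measured signal. Of these, 8 fell in DDE against control, 8 rose and 1 fell in PXDDE against DDE, and 6 rose in PXDDE against control. Cyp11a1 and Cyp11b1 were not well above background on any DDE array. In a whole liver sample, fewer cells of a type and less RNA per cell cannot be told apart.

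More members rose than fell in every comparison, and most changes were small. In DDE against control, 18 members rose and 5 fell, so 62.2% were called, against 50.3% of all genes (24% higher and 26.3% lower). In PXDDE against DDE, 15 rose and 7 fell, which is 59.5% of the members, against 49.9% of all genes (20.2% higher and 29.7% lower). In PXDDE against control, 24 rose and 7 fell, or 83.8% of the members, against 70.9% of all genes (31.6% higher and 39.3% lower). The share of members called lay above that of all genes in each comparison, and the split leaned to the higher side where that of all genes leaned to the lower side. The first and the last comparison share the control arrays, and the DDE arrays stand in the first and the second, so the counts are not independent of each other.

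Most called changes were under 1.5-fold. The median log2 change of the members was 0.116 in DDE against control, 0.137 in PXDDE against DDE and 0.252 in PXDDE against control, against -0.024, -0.04 and -0.058 over all genes. Called changes of at least 1.5-fold were made by 2, 2 and 10 members in these comparisons, or 5.41%, 5.41% and 27% of them. Over all genes the same rule took 11.8% in DDE against control (3.33% higher and 8.48% lower), 11.1% in PXDDE against DDE (2.92% higher and 8.18% lower) and 31.4% in PXDDE against control (9.82% higher and 21.6% lower). In the values used here the members' share past 1.5-fold was below that of all genes in all 3 comparisons, while their share called was above it. In PXDDE against control the shares past 1.5-fold were near each other, at 27% and 31.4%. Shares past 1.5-fold were not counted under the other scalings. The arrays of the groups did not overlap for 22, 22 and 31 members, or 59.5%, 59.5% and 83.8% of them, against 46.4%, 44.7% and 65.2% of all genes.

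**Figure D1:**
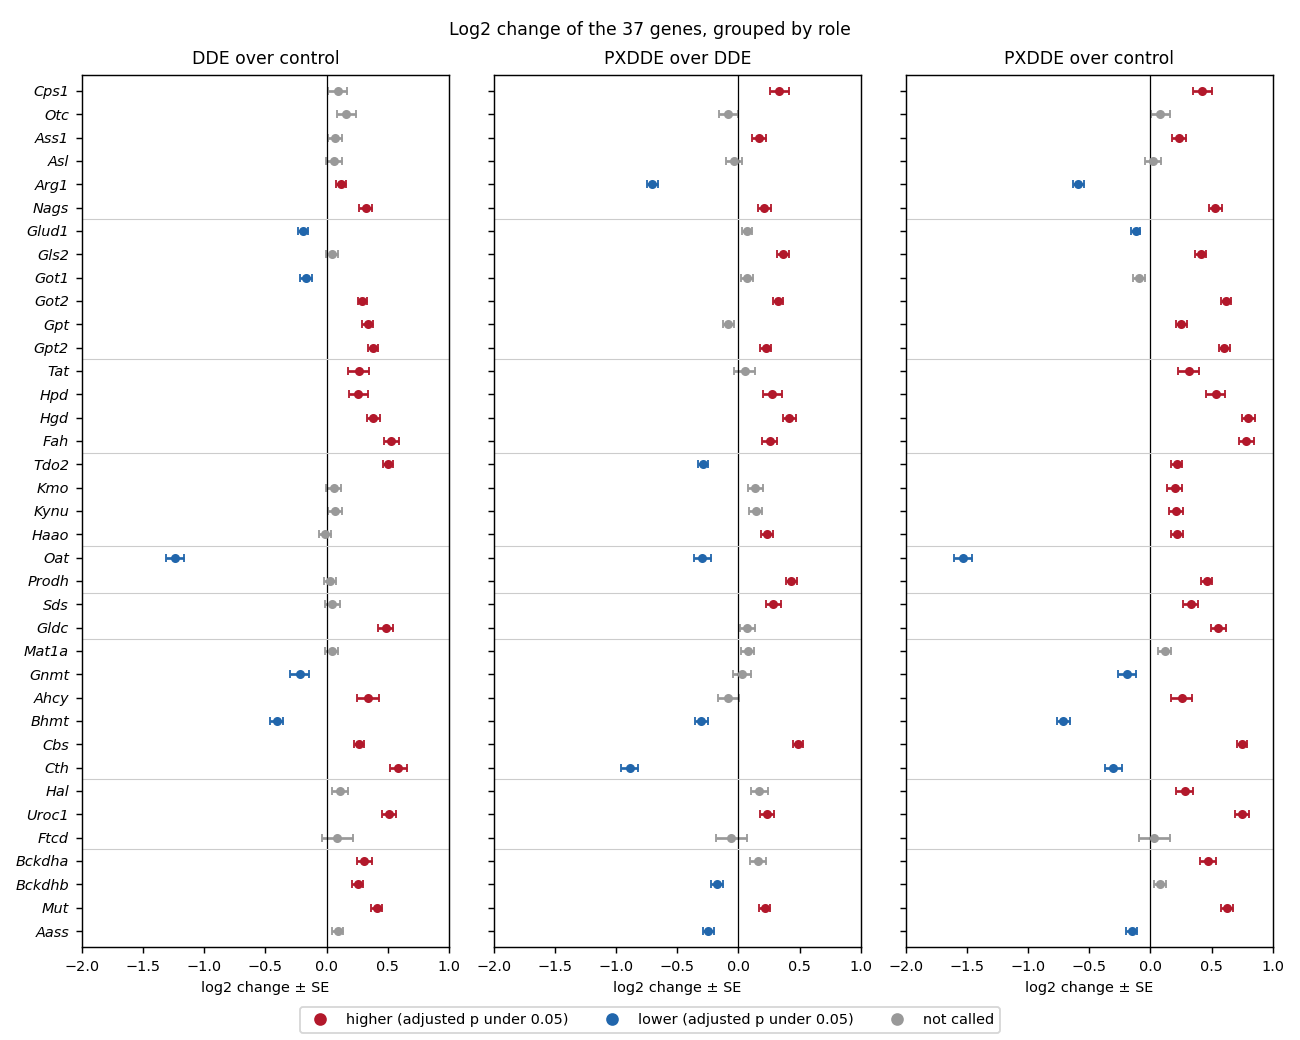
Log2 change of each of the 37 genes (points) with its standard error (bars) in DDE over control, PXDDE over DDE and PXDDE over control, ordered by role. Most points sit within 0.5 of 0, and Oat at -1.24 in DDE and -1.53 in PXDDE over control stands farthest out.

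The scaling of the arrays moved these counts and medians. With each array centred on its median, the median change of all genes became 0.207, 0.103 and 0.317 in DDE against control, PXDDE against DDE and PXDDE against control. Of the called genes, 81.3%, 66.3% and 73.1% were then higher, against 47.7%, 40.6% and 44.5% in the values used here. The members were called 32 higher and 2 lower, 23 and 4, and 32 and 3 under that setting. Quantile normalisation gave 52.4%, 52.2% and 53.4% of called genes as higher. The RMA-like setting gave 51.8%, 52.6% and 53.4%, and the deposited values gave 52%, 52.6% and 53.7%. The distance between the median of the members and that of all genes was 0.14 to 0.201 in DDE against control, 0.177 to 0.284 in PXDDE against DDE and 0.31 to 0.393 in PXDDE against control over all 6 scalings, and the 75th percentile and the median give the same distance by construction.

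**Figure D2:**
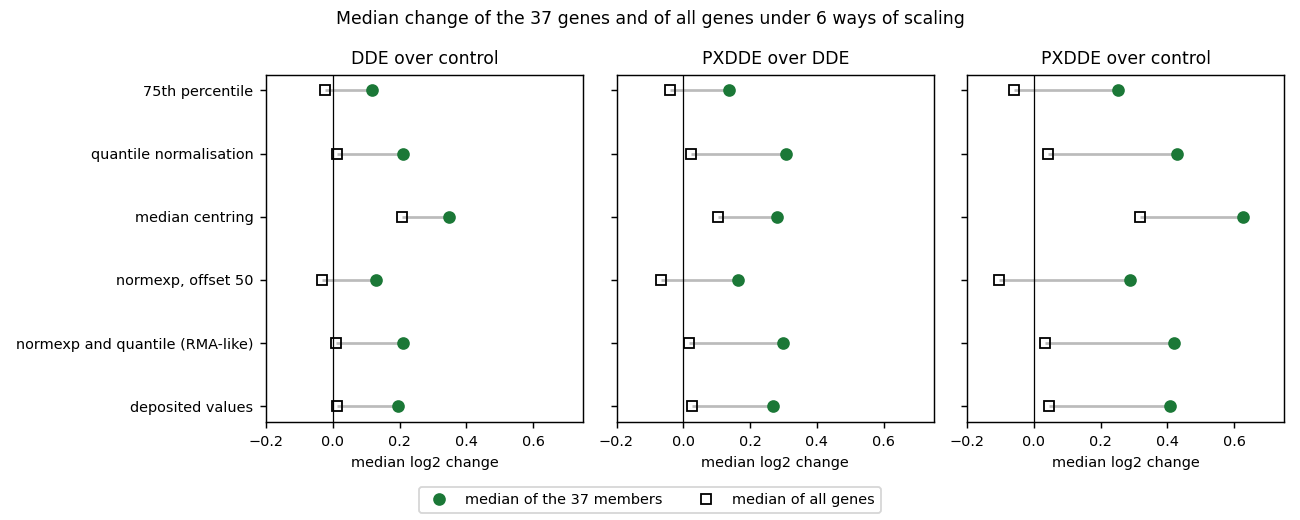
Median log2 change of the 37 genes (filled circles) and of all genes tested (open squares) under 6 ways of scaling the arrays, for the 3 comparisons. The circle lies to the right of the square in every row, at 0.252 against -0.058 for PXDDE over control with the 75th percentile.

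The urea cycle genes gave few calls under p,p'-DDE in the values used here, and arginase went lower when must was added. In DDE against control 2 of 6 rose and none fell, in PXDDE against DDE 3 rose and 1 fell, and in PXDDE against control 3 rose and 1 fell. Otc and Asl were called in none of these, and Arg1 was the member that fell. Called shares were 33.3%, 66.7% and 66.7%, against 50.3%, 49.9% and 70.9% of all genes. Log2 changes in DDE against control depended on the scaling. Over the other scalings they spanned 0.03 to 0.32 for Cps1, 0.09 to 0.39 for Otc, 0.09 to 0.30 for Ass1 and 0.01 to 0.29 for Asl.

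Cps1 had log2 levels of 3.99, 4.13, 3.85 and 4.07 in PXDDE livers, 3.48, 3.73, 3.75 and 3.75 in DDE livers and 3.47, 3.57, 3.64 and 3.67 in control livers. Cps1 makes carbamoyl phosphate from ammonia and bicarbonate, the entry into the cycle. All PXDDE arrays lay above all DDE and control arrays, while DDE replicate 1 lay at the level of the lowest control array. Cps1 was 1.34-fold higher in PXDDE against control, at a log2 change of 0.42 ± 0.078 (adjusted p = 4.65e-04, 0.41 to 0.80 over the other scalings). Against DDE, the PXDDE level of Cps1 was 1.26-fold higher, with a log2 change of 0.33 ± 0.078 (adjusted p = 0.00432, 0.36 to 0.48 over the other scalings). In DDE against control its log2 change was 0.09 ± 0.078 (adjusted p = 0.365, 0.03 to 0.32 over the other scalings). Nags makes the N-acetylglutamate without which Cps1 is inactive. Its log2 levels were 3.54 to 3.69 in PXDDE, 3.35 to 3.51 in DDE and 3.0 to 3.16 in control livers, with no overlap between any pair of groups. It rose in each comparison, with log2 changes of 0.32 in DDE against control (adjusted p = 4.75e-04), 0.21 in PXDDE against DDE (adjusted p = 0.00646) and 0.53 in PXDDE against control (adjusted p = 3.38e-06).

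Otc had log2 levels of 3.51, 3.34, 3.32 and 3.40 in PXDDE livers, 3.26, 3.51, 3.62 and 3.52 in DDE livers and 3.37, 3.38, 3.32 and 3.18 in control livers. Otc joins carbamoyl phosphate to ornithine and gives citrulline. The 3 groups overlapped, and no change was called: the log2 change was 0.16 in DDE against control (adjusted p = 0.107), -0.08 in PXDDE against DDE (adjusted p = 0.409) and 0.08 in PXDDE against control (adjusted p = 0.381). Without DDE replicate 1, DDE against control was called at 0.23 (adjusted p = 0.0137). A dimmer Otc probe, laid out on another transcript, read log2 changes of 0.95 (adjusted p = 4.35e-05) and 1.0 (adjusted p = 8.45e-06) in DDE and PXDDE against control, so the probes disagree.

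Ass1 had log2 levels of 8.12, 8.21, 8.20 and 8.29 in PXDDE livers, 8.15, 7.95, 8.06 and 8.01 in DDE livers and 7.89, 8.02, 7.94 and 8.04 in control livers. Ass1 joins citrulline to aspartate, which brings in the other nitrogen of urea. PXDDE arrays lay above all control arrays, and DDE arrays overlapped both groups. It was 1.18-fold higher in PXDDE against control, with a log2 change of 0.23 ± 0.057 (adjusted p = 0.00333, 0.28 to 0.63 over the other scalings). The rise over DDE, a log2 change of 0.17 ± 0.057 (adjusted p = 0.032), was not called without any single one of DDE replicates 2, 3 and 4 or PXDDE replicates 2, 3 and 4, at 0.13 to 0.17 (adjusted p = 0.0529 to 0.093).

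Asl had log2 levels of 5.08, 5.29, 5.21 and 5.28 in PXDDE livers, 5.39, 5.14, 5.24 and 5.25 in DDE livers and 5.20, 5.13, 5.16 and 5.29 in control livers. Asl splits argininosuccinate into arginine and fumarate. The groups overlapped throughout, with log2 changes of 0.06 in DDE against control (adjusted p = 0.465), -0.04 in PXDDE against DDE (adjusted p = 0.64) and 0.02 in PXDDE against control (adjusted p = 0.791), none of them called. A dim probe for another Asl transcript at chr5:130498273-130498332 fell by 1.28 in DDE against control, by 0.97 in PXDDE against DDE and by 2.25 in PXDDE against control, on the log2 scale. The mean of both probes therefore gave the opposite direction in DDE and in PXDDE against control.

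Arg1 had log2 levels of 5.63, 5.65, 5.62 and 5.60 in PXDDE livers, 6.28, 6.39, 6.32 and 6.34 in DDE livers and 6.15, 6.17, 6.26 and 6.28 in control livers. Arg1, the arginase of hepatocytes, releases urea from arginine. The 4 PXDDE arrays lay within 5.60 to 5.65 and below every other array, whereas DDE and control arrays overlapped. PXDDE over DDE gave a log2 change in Arg1 of -0.70 ± 0.043 (adjusted p = 2.06e-07, -0.71 to -0.42 over the other scalings), 1.63-fold lower. Arg1 was 1.5-fold lower in PXDDE against control, at a log2 change of -0.59 ± 0.043 (adjusted p = 2.48e-07, -0.58 to -0.20 over the other scalings). The small rise in DDE against control, a log2 change of 0.12 ± 0.043 (adjusted p = 0.0408), was not called when any one of control replicates 1 and 2, DDE replicates 2, 3 and 4 or PXDDE replicates 2, 3 and 4 was left out, at 0.1 to 0.12 (adjusted p = 0.0502 to 0.11). Within the 3 slides that held both groups, the PXDDE minus DDE difference was -0.75 to -0.68.

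**Figure D3:**
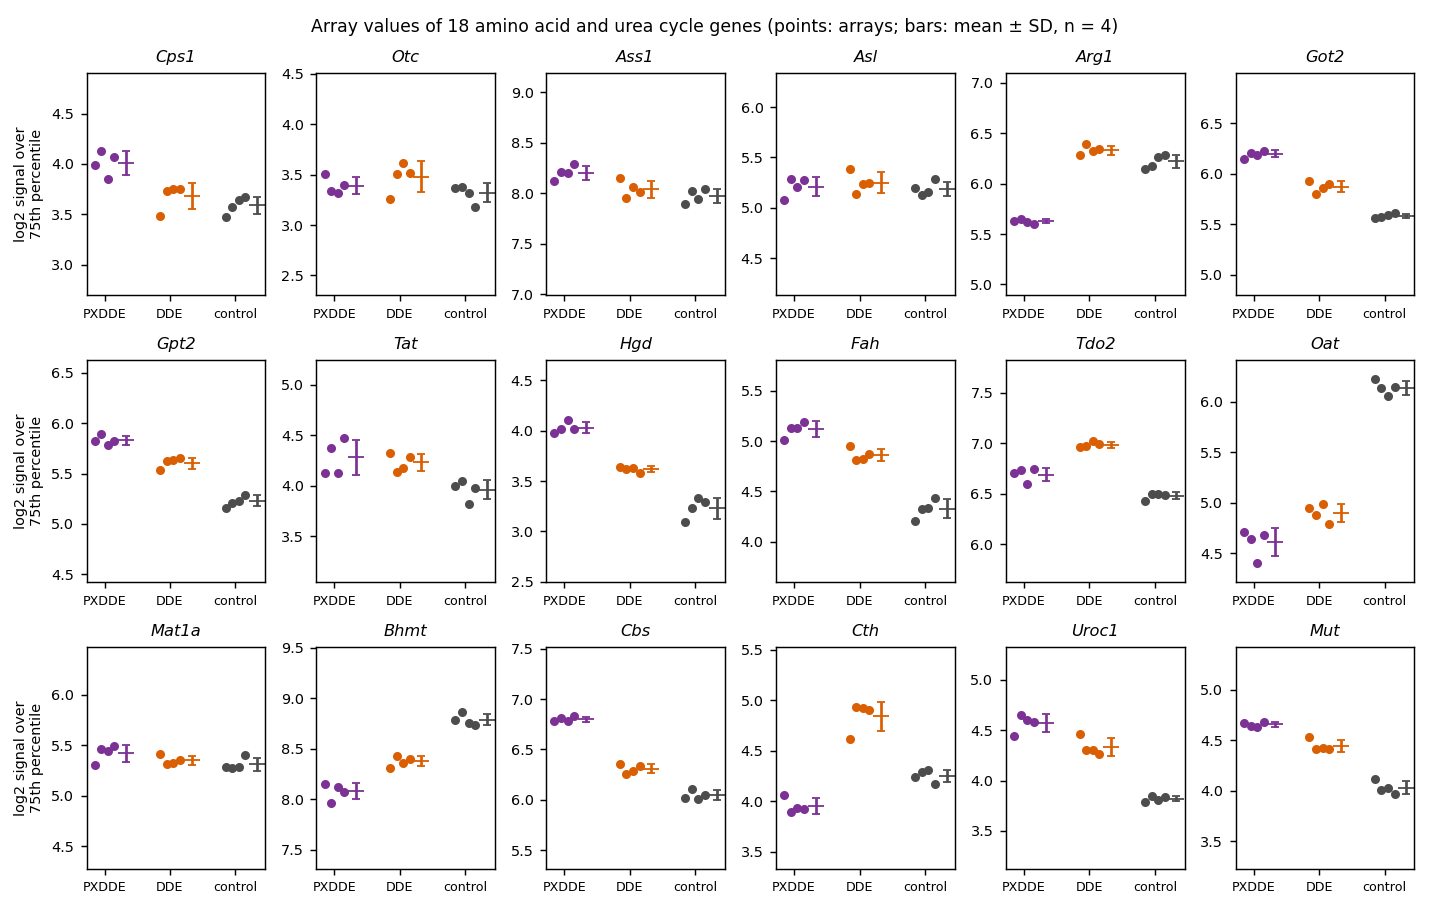
Log2 level relative to the 75th percentile of the array for 18 of the genes, with each array as a point and the mean ± SD (n = 4) beside it, for PXDDE, DDE and control. The vertical axes cover the same span around each gene's own level, so Oat and Arg1 separate widely while Otc, Asl and Mat1a overlap.

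Of the 6 genes of amino nitrogen transfer, 3 rose and 2 fell in DDE against control, 3 rose and none fell in PXDDE against DDE, and 4 rose and 1 fell in PXDDE against control. Got2 and Gpt2 were among those that rose in all comparisons.

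Got2 had log2 levels of 6.15, 6.21, 6.19 and 6.23 in PXDDE livers, 5.93, 5.80, 5.86 and 5.90 in DDE livers and 5.56, 5.57, 5.59 and 5.61 in control livers. Got2, the mitochondrial aspartate aminotransferase, hands amino groups to aspartate. No pair of groups overlapped. Against control, the PXDDE level of Got2 was 1.53-fold higher, with a log2 change of 0.61 ± 0.040 (adjusted p = 9.38e-08, 0.67 to 1.01 over the other scalings). DDE over control gave a log2 change in Got2 of 0.29 ± 0.040 (adjusted p = 1.07e-04, 0.29 to 0.52 over the other scalings), 1.23-fold higher. Got2 was 1.25-fold higher in PXDDE against DDE, at a log2 change of 0.32 ± 0.040 (adjusted p = 5.26e-05, 0.36 to 0.66 over the other scalings). Gpt2 had log2 levels of 5.82, 5.89, 5.78 and 5.82 in PXDDE livers, 5.53, 5.62, 5.63 and 5.65 in DDE livers and 5.16, 5.21, 5.23 and 5.29 in control livers. Gpt2 is the mitochondrial alanine aminotransferase, and its groups also stood apart from each other. It was 1.52-fold higher in PXDDE than in control livers, a log2 change of 0.60 ± 0.044 (adjusted p = 2.69e-07, 0.66 to 0.98 over the other scalings). DDE over control gave a log2 change in Gpt2 of 0.38 ± 0.044 (adjusted p = 3.64e-05, 0.34 to 0.61 over the other scalings), 1.3-fold higher. Gpt2 was 1.17-fold higher in PXDDE against DDE, at a log2 change of 0.22 ± 0.044 (adjusted p = 0.00154, 0.25 to 0.53 over the other scalings).

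Gpt, the cytosolic alanine aminotransferase, had log2 levels of 6.98 to 7.01 in PXDDE, 7.04 to 7.16 in DDE and 6.67 to 6.80 in control livers. It rose in DDE against control by 0.33 (adjusted p = 6.17e-05) and in PXDDE against control by 0.25 (adjusted p = 2.10e-04), and its log2 change of -0.08 in PXDDE against DDE was not called (adjusted p = 0.125). Gls2, the liver glutaminase, which frees ammonia from glutamine beside Cps1, was at 4.91 to 5.0 in PXDDE, 4.54 to 4.70 in DDE and 4.47 to 4.57 in control (log2 levels). It rose by 0.36 in PXDDE against DDE and by 0.41 in PXDDE against control (log2 changes, adjusted p = 7.82e-05 and 1.10e-05). Its change in DDE against control, 0.05 on the log2 scale, was not called (adjusted p = 0.445). A dimmer Gls2 probe was called higher in that comparison, at 0.43 (adjusted p = 0.00351), so the Gls2 probes disagree.

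Glud1, which releases ammonia from glutamate, and Got1, the cytosolic partner of Got2, were the members of the group that fell. Glud1 was at 7.41 to 7.53 in PXDDE, 7.40 to 7.43 in DDE and 7.57 to 7.64 in control (log2 levels), with log2 changes of -0.19 (adjusted p = 0.00185) and -0.12 (adjusted p = 0.0152) in DDE and PXDDE against control. Got1 was at 5.62 to 5.73 in PXDDE, 5.51 to 5.65 in DDE and 5.66 to 5.80 in control and fell in DDE against control by 0.17 on the log2 scale (adjusted p = 0.0162). Its log2 change in PXDDE against control, -0.09, was not called (adjusted p = 0.11), but was at -0.12 without control replicate 4 (adjusted p = 0.0477). Neither direction held under all scalings. Glud1 spanned -0.18 to 0.04 in DDE and -0.08 to 0.28 in PXDDE against control, and Got1 spanned -0.14 to 0.06 in DDE and -0.05 to 0.28 in PXDDE against control. Dimmer probes of Got1 read -0.01 and -0.02 in DDE against control, neither of them called (adjusted p = 0.863 and 0.792). In PXDDE against control they were called higher, at 0.19 and 0.17 (adjusted p = 0.0169 and 0.0138). The Got1 probes therefore disagree.

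In tyrosine breakdown all 4 enzymes rose in DDE against control, 3 of 4 rose in PXDDE against DDE, and all 4 rose in PXDDE against control, with median log2 changes of 0.323 in DDE against control, 0.265 in PXDDE against DDE and 0.659 in PXDDE against control. Against control, Fah and Hgd had the largest folds of the 4 in both DDE and PXDDE.

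Fah had log2 levels of 5.01, 5.13, 5.13 and 5.19 in PXDDE livers, 4.95, 4.81, 4.82 and 4.87 in DDE livers and 4.21, 4.33, 4.34 and 4.44 in control livers. Fah splits fumarylacetoacetate, the last step of the pathway, and its loss causes hereditary tyrosinaemia. No pair of groups overlapped in this gene. Fah was 1.72-fold higher in PXDDE against control, at a log2 change of 0.78 ± 0.059 (adjusted p = 3.02e-07, 0.75 to 1.16 over the other scalings). Against control, the DDE level of Fah was 1.44-fold higher, with a log2 change of 0.53 ± 0.059 (adjusted p = 2.39e-05, 0.37 to 0.76 over the other scalings). PXDDE over DDE gave a log2 change in Fah of 0.25 ± 0.059 (adjusted p = 0.00386, 0.28 to 0.43 over the other scalings), 1.19-fold higher. Hgd had log2 levels of 3.98, 4.02, 4.11 and 4.02 in PXDDE livers, 3.64, 3.62, 3.63 and 3.58 in DDE livers and 3.09, 3.23, 3.33 and 3.29 in control livers. Hgd opens the ring of homogentisate, the step before Fah and its isomerase. Again no pair of groups overlapped. Hgd was 1.74-fold higher in PXDDE against control, at a log2 change of 0.80 ± 0.054 (adjusted p = 1.45e-07, 0.74 to 1.17 over the other scalings). Against control, the DDE level of Hgd was 1.3-fold higher, with a log2 change of 0.38 ± 0.054 (adjusted p = 1.53e-04, 0.31 to 0.61 over the other scalings). It was 1.33-fold higher in PXDDE than in DDE livers, a log2 change of 0.41 ± 0.054 (adjusted p = 8.38e-05, 0.43 to 0.56 over the other scalings). A dim probe on another Hgd transcript fell by 0.72 in DDE and by 1.01 in PXDDE against control (log2 scale, adjusted p = 6.62e-04 and 1.90e-05), so the mean of the Hgd probes has the opposite sign in these comparisons.

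Tat had log2 levels of 4.13, 4.37, 4.13 and 4.47 in PXDDE livers, 4.32, 4.14, 4.17 and 4.28 in DDE livers and 4.0, 4.05, 3.82 and 3.98 in control livers. Tat takes the amino group off tyrosine and is the rate-limiting enzyme. The PXDDE and DDE arrays overlapped each other, and both groups lay above all control arrays. It was 1.24-fold higher in PXDDE against control, a log2 change of 0.31 ± 0.085 (adjusted p = 0.00592, 0.28 to 0.69 over the other scalings). In DDE against control the log2 change was 0.26 ± 0.085 (adjusted p = 0.0224, 0.16 to 0.49 over the other scalings). That rise was not called without control replicate 3, DDE replicate 1 or DDE replicate 4, at 0.22 to 0.25 (adjusted p = 0.0551 to 0.0672). Tat was at 0.05 on the log2 scale in PXDDE against DDE and was not called (adjusted p = 0.657). Hpd makes homogentisate, and its log2 levels were 5.83 to 6.07 in PXDDE, 5.54 to 5.77 in DDE and 5.24 to 5.56 in control. It rose by 0.26 in DDE against control (adjusted p = 0.0154), 0.28 in PXDDE against DDE (adjusted p = 0.0112) and 0.53 in PXDDE against control (adjusted p = 6.62e-05) on the log2 scale.

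Tryptophan breakdown gave smaller median log2 changes than tyrosine breakdown. They were 0.064 in DDE against control, 0.139 in PXDDE against DDE and 0.211 in PXDDE against control. In DDE against control 1 of 4 genes rose, in PXDDE against DDE 1 rose and 1 fell, and in PXDDE against control all 4 rose, by 0.2 to 0.22 on the log2 scale. Over the other scalings the rises in PXDDE against control spanned 0.23 to 0.57 for Kmo, 0.15 to 0.58 for Kynu and 0.25 to 0.61 for Haao.

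Tdo2 had log2 levels of 6.71, 6.73, 6.60 and 6.74 in PXDDE livers, 6.96, 6.97, 7.02 and 6.99 in DDE livers and 6.43, 6.50, 6.50 and 6.49 in control livers. Tdo2 opens the indole ring of tryptophan and sets the rate of the pathway in liver. DDE arrays lay above all others and PXDDE arrays lay between DDE and control arrays. Against control, the DDE level of Tdo2 was 1.42-fold higher, with a log2 change of 0.50 ± 0.042 (adjusted p = 2.75e-06, 0.50 to 0.73 over the other scalings). PXDDE over control gave a log2 change in Tdo2 of 0.21 ± 0.042 (adjusted p = 7.46e-04, 0.21 to 0.68 over the other scalings), 1.16-fold higher. The fall in PXDDE against DDE, a log2 change of -0.29 ± 0.042 (adjusted p = 1.79e-04), did not hold under all scalings: it was -0.01 with quantile normalisation, -0.01 in the RMA-like setting and 0 in the deposited values, none of them called.

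Kmo, Kynu and Haao carry kynurenine on towards nicotinamide nucleotides. Kmo was at 4.80 to 4.89 in PXDDE, 4.57 to 4.82 in DDE and 4.56 to 4.72 in control. Kynu was at 2.17 to 2.27 in PXDDE, 2.04 to 2.13 in DDE and 1.87 to 2.12 in control, and Haao at 7.79 to 7.94 in PXDDE, 7.59 to 7.73 in DDE and 7.63 to 7.70 in control (log2 levels). All 3 rose in PXDDE against control, Kmo by 0.20 (adjusted p = 0.0125), Kynu by 0.21 (adjusted p = 0.00472) and Haao by 0.22 (adjusted p = 0.00158) on the log2 scale. Haao also rose in PXDDE against DDE, by 0.23 (adjusted p = 0.00188). Kmo was called there without DDE replicate 4, at 0.18 (adjusted p = 0.0363), and Kynu without control replicate 1, control replicate 4 or PXDDE replicate 4, at 0.14 to 0.16 (adjusted p = 0.0187 to 0.0469). In all, 7 of 26 alternatives called Kmo and 11 called Kynu in PXDDE against DDE. Over the other scalings Kmo spanned 0.16 to 0.28 and Kynu 0.14 to 0.28 in that comparison. The dimmest probe of Kynu fell in DDE and in PXDDE against control, where its 2 brighter probes read positive log2 changes.

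Oat was the member with the largest change. Oat had log2 levels of 4.71, 4.64, 4.40 and 4.68 in PXDDE livers, 4.95, 4.88, 4.99 and 4.79 in DDE livers and 6.23, 6.14, 6.06 and 6.15 in control livers. Oat, ornithine aminotransferase, moves an amino group off ornithine in the cells around the central vein, and its probe lies at chr7:139749183-139749242. The control arrays stood apart from all others by more than a log2 unit, and PXDDE arrays lay below all DDE arrays. DDE over control gave a log2 change in Oat of -1.24 ± 0.072 (adjusted p = 1.41e-07, -1.23 to -0.99 over the other scalings), 2.36-fold lower. Oat was 2.9-fold lower in PXDDE against control, at a log2 change of -1.53 ± 0.072 (adjusted p = 8.02e-09, -1.50 to -1.16 over the other scalings). Against DDE, the PXDDE level of Oat was 1.23-fold lower, with a log2 change of -0.29 ± 0.072 (adjusted p = 0.00561, -0.27 to -0.15 over the other scalings). The last of these was not called with median centring (-0.15), while the changes against control were called under every scaling. Within slides the DDE minus control difference was -1.44 to -1.15.

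Prodh starts proline breakdown in mitochondria. Its log2 levels were 6.21 to 6.32 in PXDDE, 5.78 to 5.96 in DDE and 5.80 to 5.84 in control. It rose by 0.43 in PXDDE against DDE and by 0.46 in PXDDE against control (log2 changes, adjusted p = 1.75e-05 and 3.23e-06), and was at 0.03 in DDE against control (not called, adjusted p = 0.624). Sds, which turns serine into pyruvate, was at 4.61 to 4.79 in PXDDE, 4.32 to 4.45 in DDE and 4.24 to 4.50 in control livers (log2 levels). It rose by 0.28 in PXDDE against DDE and 0.33 in PXDDE against control (adjusted p = 0.00275 and 5.13e-04). Gldc, a subunit of the glycine cleavage system, was at 3.79 to 4.0 in PXDDE, 3.66 to 3.89 in DDE and 3.26 to 3.35 in control and rose by 0.48 in DDE and 0.55 in PXDDE against control (adjusted p = 6.43e-05 and 7.47e-06). A dim second probe of Gldc fell in the same comparisons, by 0.48 and 0.79 on the log2 scale.

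The methionine cycle and transsulfuration enzymes moved in different directions. Of the 6 genes, 3 rose and 2 fell in DDE against control, 1 rose and 2 fell in PXDDE against DDE, and 2 rose and 3 fell in PXDDE against control. Bhmt fell and Cbs rose in all of them, and Cth rose in DDE against control and fell in the comparisons with PXDDE.

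Cth had log2 levels of 4.06, 3.89, 3.93 and 3.92 in PXDDE livers, 4.62, 4.93, 4.92 and 4.90 in DDE livers and 4.24, 4.29, 4.31 and 4.17 in control livers. Cth splits cystathionine and yields cysteine, and it also makes hydrogen sulfide. Its probe lies at chr3:157557667-157557726. DDE arrays lay above all control arrays and all PXDDE arrays below them, with DDE replicate 1 the lowest of its group. PXDDE over DDE gave a log2 change in Cth of -0.89 ± 0.072 (adjusted p = 2.08e-06, -0.86 to -0.73 over the other scalings), 1.85-fold lower. Cth was 1.5-fold higher in DDE against control, at a log2 change of 0.59 ± 0.072 (adjusted p = 5.27e-05, 0.48 to 0.82 over the other scalings). The fall in PXDDE against control, a log2 change of -0.30 ± 0.072 (adjusted p = 0.00275), was at 0.07 with median centring. The rise in DDE and the fall in PXDDE against DDE both rest on the same DDE arrays.

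Cbs had log2 levels of 6.78, 6.81, 6.78 and 6.83 in PXDDE livers, 6.36, 6.26, 6.29 and 6.34 in DDE livers and 6.02, 6.11, 6.01 and 6.05 in control livers. Cbs, the enzyme before Cth, joins homocysteine to serine. PXDDE arrays were the highest, DDE arrays came next and control arrays were the lowest, with no overlap. It was 1.68-fold higher in PXDDE than in control livers, a log2 change of 0.75 ± 0.040 (adjusted p = 2.25e-08, 0.80 to 1.19 over the other scalings). DDE over control gave a log2 change in Cbs of 0.26 ± 0.040 (adjusted p = 2.52e-04, 0.28 to 0.49 over the other scalings), 1.2-fold higher. Cbs was 1.4-fold higher in PXDDE against DDE, at a log2 change of 0.48 ± 0.040 (adjusted p = 2.44e-06, 0.51 to 0.83 over the other scalings). Bhmt had log2 levels of 8.15, 7.96, 8.12 and 8.07 in PXDDE livers, 8.31, 8.43, 8.36 and 8.40 in DDE livers and 8.79, 8.86, 8.76 and 8.74 in control livers. Bhmt gives homocysteine a methyl group of betaine and so returns it to methionine. Its arrays ran in the opposite order, with no overlap. PXDDE over control gave a log2 change in Bhmt of -0.71 ± 0.051 (adjusted p = 2.14e-07, -0.65 to -0.34 over the other scalings), 1.64-fold lower. Bhmt was 1.33-fold lower in DDE against control, at a log2 change of -0.41 ± 0.051 (adjusted p = 5.93e-05, -0.39 to -0.18 over the other scalings). Against DDE, the PXDDE level of Bhmt was 1.23-fold lower, with a log2 change of -0.30 ± 0.051 (adjusted p = 4.89e-04, -0.26 to -0.06 over the other scalings). The last of these was not called with quantile normalisation (-0.08) or in the deposited values (-0.06).

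Mat1a had log2 levels of 5.30, 5.46, 5.44 and 5.49 in PXDDE livers, 5.41, 5.31, 5.32 and 5.35 in DDE livers and 5.28, 5.27, 5.28 and 5.40 in control livers. Mat1a makes S-adenosylmethionine in adult liver. The groups overlapped in all comparisons, and its log2 changes of 0.04 in DDE against control (adjusted p = 0.52), 0.07 in PXDDE against DDE (adjusted p = 0.253) and 0.12 in PXDDE against control (adjusted p = 0.061) were not called. The last was called without control replicate 4, at 0.15 (adjusted p = 0.0252), and without PXDDE replicate 1, at 0.16 (adjusted p = 0.0126). In all, that change of Mat1a was called under 9 of 26 alternatives, and it spanned 0.15 to 0.49 over the other scalings. Gnmt, which uses up surplus S-adenosylmethionine, was at 6.75 to 6.97 in PXDDE, 6.70 to 7.0 in DDE and 7.05 to 7.11 in control (log2 levels, n = 3 for control). It fell by 0.22 in DDE and by 0.19 in PXDDE against control (log2 scale, adjusted p = 0.035 and 0.044). Over the other scalings the changes of Gnmt spanned -0.19 to 0.02 in DDE and -0.14 to 0.29 in PXDDE against control, so neither direction held under all of them. Each fall was lost on leaving out single arrays, at -0.23 to -0.17 without control replicates 1, 2 or 4 or DDE replicates 2, 3 or 4 in DDE against control. In PXDDE against control it was -0.2 to -0.15 without control replicates 1, 2 or 4, DDE replicates 3 or 4 or PXDDE replicates 1 or 3. With the marked spot kept, the log2 changes were -0.1 in DDE and -0.07 in PXDDE against control. Ahcy, which clears S-adenosylhomocysteine, was at 2.15 to 2.45 in PXDDE, 2.33 to 2.69 in DDE and 2.09 to 2.12 in control. It rose by 0.34 in DDE and 0.26 in PXDDE against control (adjusted p = 0.00717 and 0.0199), though the rise in PXDDE was not called without PXDDE replicate 2, 3 or 4, at 0.23 to 0.24.

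In histidine breakdown 1 of 3 genes rose in DDE against control, 1 in PXDDE against DDE and 2 in PXDDE against control, and none fell. Uroc1 had log2 levels of 4.44, 4.65, 4.60 and 4.58 in PXDDE livers, 4.46, 4.30, 4.30 and 4.26 in DDE livers and 3.79, 3.85, 3.81 and 3.84 in control livers. Uroc1, urocanase, takes the product of Hal. Its PXDDE and DDE arrays both lay above all control arrays and overlapped each other. Uroc1 was 1.68-fold higher in PXDDE against control, at a log2 change of 0.75 ± 0.056 (adjusted p = 3.34e-07, 0.69 to 1.12 over the other scalings). Against control, the DDE level of Uroc1 was 1.42-fold higher, with a log2 change of 0.51 ± 0.056 (adjusted p = 2.40e-05, 0.36 to 0.74 over the other scalings). It was 1.18-fold higher in PXDDE than in DDE livers, a log2 change of 0.24 ± 0.056 (adjusted p = 0.00478, 0.26 to 0.38 over the other scalings). Hal, histidine ammonia-lyase, was at 4.98 to 5.16 in PXDDE, 4.79 to 5.10 in DDE and 4.71 to 4.87 in control and rose by 0.28 in PXDDE against control (log2 scale, adjusted p = 0.00326). Its change of 0.17 in PXDDE against DDE (adjusted p = 0.0594) was called without DDE replicate 1, at 0.23 (adjusted p = 0.00663), or PXDDE replicate 1, at 0.2 (adjusted p = 0.0384). In all, 11 of 26 alternatives called that change of Hal, which spanned 0.19 to 0.34 over the other scalings. Ftcd, which passes the last carbon of histidine to folate, was at 6.55 to 7.04 in PXDDE, 6.68 to 7.05 in DDE and 6.52 to 6.97 in control and was called in no comparison, with log2 changes of 0.09 in DDE against control (adjusted p = 0.59), -0.06 in PXDDE against DDE (adjusted p = 0.735) and 0.03 in PXDDE against control (adjusted p = 0.841). Its standard error of 0.127 was the largest among the members.

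Of the genes of branched-chain and lysine breakdown, 3 of 4 rose in DDE against control, 1 rose and 2 fell in PXDDE against DDE, and 2 rose and 1 fell in PXDDE against control. Mut had log2 levels of 4.67, 4.64, 4.63 and 4.68 in PXDDE livers, 4.53, 4.41, 4.42 and 4.41 in DDE livers and 4.12, 4.01, 4.03 and 3.97 in control livers. Mut, methylmalonyl-CoA mutase, brings the carbon of valine, isoleucine and methionine into the citric acid cycle. No pair of its groups overlapped, and DDE replicate 1 was the highest of its group. Against control, the PXDDE level of Mut was 1.54-fold higher, with a log2 change of 0.63 ± 0.045 (adjusted p = 2.33e-07, 0.58 to 1.0 over the other scalings). DDE over control gave a log2 change in Mut of 0.41 ± 0.045 (adjusted p = 2.31e-05, 0.28 to 0.64 over the other scalings), 1.33-fold higher. Mut was 1.16-fold higher in PXDDE against DDE, at a log2 change of 0.21 ± 0.045 (adjusted p = 0.00225, 0.25 to 0.36 over the other scalings). Bckdha and Bckdhb are the subunits of the enzyme that commits branched-chain keto acids to breakdown. Bckdha was at 4.76 to 4.90 in PXDDE, 4.55 to 4.86 in DDE and 4.33 to 4.41 in control, and rose by 0.31 in DDE and 0.47 in PXDDE against control (log2 scale, adjusted p = 0.00196 and 4.11e-05). Its log2 change of 0.16 in PXDDE against DDE (adjusted p = 0.0542) was called without DDE replicate 1, at 0.22, or PXDDE replicate 1, at 0.19. In all, 11 of 26 alternatives called that change of Bckdha, which spanned 0.20 to 0.32 over the other scalings. Bckdhb was at 5.11 to 5.25 in PXDDE, 5.30 to 5.42 in DDE and 5.02 to 5.13 in control. It rose by 0.25 in DDE against control (adjusted p = 9.95e-04) and its fall in PXDDE against DDE, -0.18 (adjusted p = 0.00906), spanned -0.14 to 0.09 over the other scalings. Aass, which starts lysine breakdown, was at 5.11 to 5.25 in PXDDE, 5.36 to 5.50 in DDE and 5.28 to 5.35 in control and fell by 0.25 in PXDDE against DDE and 0.15 in PXDDE against control (adjusted p = 8.81e-04 and 0.00928), with -0.22 to -0.03 over the other scalings in PXDDE against DDE and -0.12 to 0.22 in PXDDE against control.

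The same direction was seen within slides. Arrays of both groups shared a slide on 3 slides in each comparison, and all 23, 22 and 31 called members in DDE against control, PXDDE against DDE and PXDDE against control had the sign of their call on each of these slides that measured them (Gnmt against control was measured on 2). The calls came from the same arrays, so this describes their evenness and adds no further samples. Of the 17 members with several kept probes, probes were called in opposite directions for 3 (Gldc, Hgd and Kynu) in DDE against control, for none in PXDDE against DDE and for 5 (Aass, Gldc, Glud1, Hgd and Kynu) in PXDDE against control. Only a probe other than the one used was called for 5 (Aass, Asl, Gls2, Kynu and Otc) in DDE against control. The same held for 6 (Asl, Gldc, Glud1, Got1, Hal and Kmo) in PXDDE against DDE and 4 (Asl, Bckdhb, Got1 and Otc) in PXDDE against control.

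Enzymes of amino acid breakdown outside the 37 were counted in the same way. Of 66 tested, 35 rose and 9 fell in DDE against control, 21 rose and 12 fell in PXDDE against DDE, and 43 rose and 13 fell in PXDDE against control, with median log2 changes of 0.196, 0.102 and 0.246. Called shares were thus 66.7%, 50% and 84.8%, against 50.3%, 49.9% and 70.9% of all genes. Ido2, another tryptophan-opening enzyme, was at 3.90 ± 0.015 in PXDDE, 3.31 ± 0.095 in DDE and 2.79 ± 0.055 in control livers (log2 levels, mean ± SD, n = 4). It rose 2.16-fold in PXDDE and 1.44-fold in DDE against control (adjusted p = 6.29e-09 and 8.48e-06). Csad, an enzyme on the way from cysteine to taurine, was at 1.90 ± 0.059 in PXDDE, 2.45 ± 0.011 in DDE and 2.04 ± 0.036 in control. It rose by 0.41 in DDE against control and fell by 0.55 in PXDDE against DDE on the log2 scale (adjusted p = 9.81e-06 and 8.59e-07). Among those that fell were Amdhd1, the step after Uroc1, at a log2 change of -1.0 in PXDDE against control, and Acat1, which ends isoleucine breakdown, at -0.62 (adjusted p = 1.08e-07 and 1.44e-07).

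Of 13 genes that make amino acids, 1 rose and 3 fell in DDE against control, 4 rose and 3 fell in PXDDE against DDE, and 4 rose and 4 fell in PXDDE against control. Over all genes 24% were higher and 26.3% lower in DDE against control, 20.2% and 29.7% in PXDDE against DDE, and 31.6% and 39.3% in PXDDE against control, and the difference between the list and all genes was not tested. Phgdh, which starts serine synthesis, was at 0.04 ± 0.054 in PXDDE, -1.75 ± 0.12 in DDE and -1.01 ± 0.11 in control livers (log2 levels). It fell by 0.74 in DDE against control and rose by 1.78 in PXDDE against DDE (log2 scale, adjusted p = 6.44e-06 and 4.02e-09). Psat1 and Psph, the later steps of serine synthesis, fell in PXDDE against control, by 1.16 and 0.69 on the log2 scale (adjusted p = 1.36e-08 and 7.98e-07). Asns, which makes asparagine, rose 2.01-fold in PXDDE against DDE (adjusted p = 1.36e-05), and so did Slc7a1, a carrier of arginine and lysine, 2.82-fold (adjusted p = 1.22e-06). The 14 pancreas markers rose in the same comparison with a median log2 change of 2.328, and their part in the rises of Phgdh, Asns and Slc7a1 was not tested. Glul, the glutamine synthetase of the cells that also hold Oat, was at 4.74 ± 0.08 in PXDDE, 4.66 ± 0.032 in DDE and 4.86 ± 0.069 in control, and fell in DDE against control by 0.20 on the log2 scale (adjusted p = 0.00752).

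Among 19 transporters of amino acids and of the urea cycle, 7 rose and 3 fell in DDE against control, 7 rose and 2 fell in PXDDE against DDE, and 11 rose and 4 fell in PXDDE against control. These are 52.6%, 47.4% and 78.9% called, against 50.3%, 49.9% and 70.9% of all genes. The difference between the list and all genes was not tested. Slc38a3, which carries glutamine and histidine into hepatocytes, was at 6.78 ± 0.083 in PXDDE, 6.30 ± 0.066 in DDE and 5.89 ± 0.058 in control (log2 levels), and was 1.85-fold higher in PXDDE against control (adjusted p = 5.65e-08). The glycine carrier Slc6a9 rose 1.93-fold in that comparison (adjusted p = 9.01e-09). Slc25a15, which takes ornithine into mitochondria for the urea cycle, was called in no comparison, with log2 changes of 0.10 in DDE against control (adjusted p = 0.375), 0.03 in PXDDE against DDE (adjusted p = 0.805) and 0.13 in PXDDE against control (adjusted p = 0.211).

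Hormone and stress regulators of these enzymes and targets commonly read beside them formed another list. Of 25 tested, 10 rose and 6 fell in DDE against control, 4 rose and 11 fell in PXDDE against DDE (20.2% higher and 29.7% lower over all genes), and 9 rose and 9 fell in PXDDE against control. In DDE against control this was 40% higher and 24% lower, against 24% and 26.3% of all genes. In PXDDE against control it was 36% each way, against 31.6% higher and 39.3% lower over all genes. Igfbp1, which insulin represses and fasting induces, was at 4.96 ± 0.009 in PXDDE, 5.73 ± 0.05 in DDE and 6.83 ± 0.059 in control livers (log2 levels). It was 3.66-fold lower in PXDDE and 2.15-fold lower in DDE against control (adjusted p = 1.93e-11 and 3.28e-09). Pck1, the gluconeogenic enzyme that glucagon induces, fell by 0.53 on the log2 scale in PXDDE and 0.19 in DDE against control (adjusted p = 3.69e-06 and 0.0111). Ppargc1a, a coactivator of fasting genes, fell by 0.74 in PXDDE and by 0.36 in DDE against control (adjusted p = 9.08e-05 and 0.0193). Klf15, a factor that induces amino acid breakdown in fasting, fell by 0.25 in PXDDE against DDE (adjusted p = 0.00187) and was not called in DDE against control (adjusted p = 0.493). The glucagon receptor Gcgr was called in no comparison, with log2 changes of -0.03 in DDE against control (adjusted p = 0.647), -0.04 in PXDDE against DDE (adjusted p = 0.524) and -0.08 in PXDDE against control (adjusted p = 0.226). Atf4, the factor of the amino acid stress response, rose by 0.14 in DDE against control (adjusted p = 0.0331), and Trib3, one of its targets, rose 1.84-fold (adjusted p = 5.22e-07). In the same comparison 1 of the 13 genes that make amino acids rose and 3 fell. Phgdh and Psat1 were among those that fell, by 0.74 and 0.37 on the log2 scale (adjusted p = 6.44e-06 and 3.0e-04). Asns was at -0.20 there and was not called (adjusted p = 0.12). Activity of Atf4 was not tested. The lists were drawn up with earlier results of these data known.

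**Figure D4:**
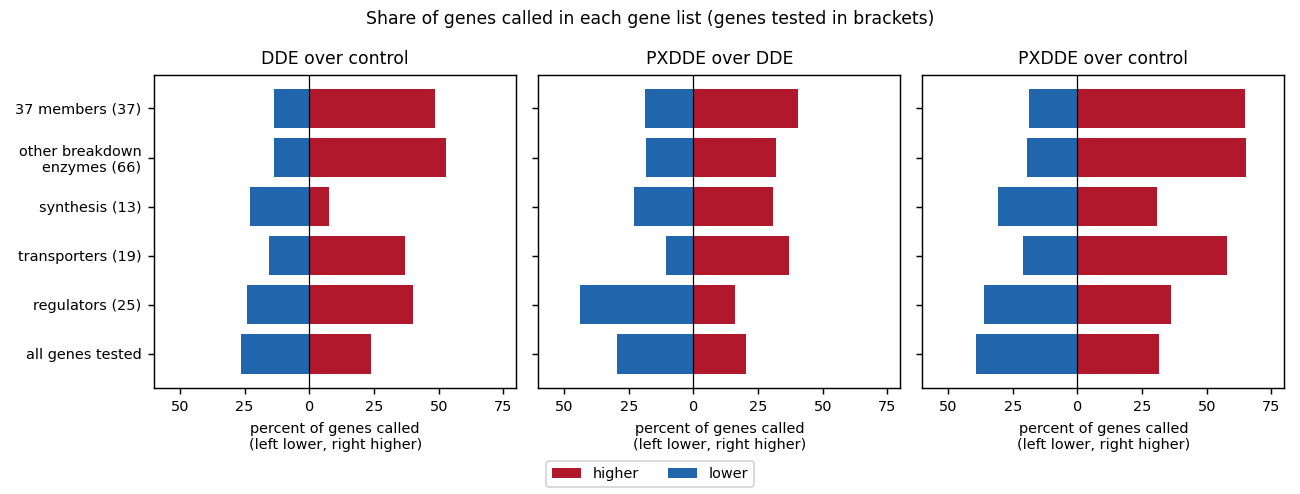
Percent of genes called lower (left of 0, blue) and higher (right of 0, red) in the 37 genes, in 4 lists of related genes and in all genes tested, for DDE over control, PXDDE over DDE and PXDDE over control. The 37 genes and the other breakdown enzymes reach 64.9% and 65.2% higher in PXDDE over control, against 31.6% of all genes, and with median centring 55.2% of all genes were higher.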

How the data were processed

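Total RNA of liver, labelled with Cy3 per the labels, was measured on 12 single-colour Agilent arrays, 4 per group. The scanner files deposited by the authors give an intensity per spot, whose processed signal had its background and trends corrected by Feature Extraction 11.5.1.1, per the file headers. The submitters' processing notes also name RMA and limma, with no role. The value table the authors deposited holds log2 values (correlation of 0.9949 to 0.9964 with the log2 processed signal, column medians 5.3243 to 5.3479). How it was computed is not given in the sources used here, and it was used as an alternative.

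Of 62976 spots per array, 3671 control spots and the spots marked as outliers (102 to 177 per array) were left out. Log2 processed signals were set relative to the 75th percentile of the array. Spots of a probe were averaged, 27098 of 56605 probes passed the filter (well above background on every array of 1 group or more), and each of 18678 genes took its brightest kept probe. The fit was made with limma 3.58.1 in R 4.3.3 (lmFit and eBayes, files read with data.table, version 1.17.8) over the 12 arrays with the group as its term, 9 residual degrees of freedom and Benjamini-Hochberg adjustment over all genes tested. The script was checked on simulated data.

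The 37 members, the lists of related genes and markers, and the tests were chosen with earlier results of these data known. Levels on every array are given for members called with at least 1.5-fold in some comparison and for Cps1, Otc, Ass1, Asl, Arg1, Tat, Tdo2 and Mat1a. From each list the 3 called genes with the smallest p per comparison, and Glul, Agxt, Slc25a15, Gcgr, Klf15, Ppargc1a, Atf4, Asns and Pck1, could be named, and those printed were picked among them after their values were seen. A further gene that this rule names is not reported here. Cell type markers named with the lists serve as examples. Alternatives were 5 other scalings, other filters and probe rules, array weights, a trended eBayes, a fit of the compared groups alone, a replicate block, a slide block, keeping the outlier spots, and leaving out each array in turn. Arrays lay on 5 slides, each its own scan pass. Gene names and mm9 positions are those of the scanner files, and a reference genome was not used here.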

Additional observations from a re-analysis of the deposited data

Results flagged for a closer look

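Of 110 sets of 4 arrays, formed by 37 genes in 3 groups without the control group of Gnmt, which had 3 values, 12 held an array far from the other 3, with a gap to its neighbour above Dixon's critical value for 4 values. Chance alone marks about 5% of such sets. All values here are log2 levels. DDE replicate 1 stood apart in 4 genes. Cps1, the entry enzyme of the urea cycle, was at 3.48 there, against 3.73 to 3.75 on the other DDE arrays. Cth, which yields cysteine, was at 4.62, against 4.90 to 4.93. Gls2, the liver glutaminase, was high at 4.70, against 4.54 to 4.55. Mut, methylmalonyl-CoA mutase, was high at 4.53, against 4.41 to 4.42. Without this array the log2 change in DDE against control was 0.16 for Cps1, 0.66 for Cth, 0.01 for Gls2 and 0.38 for Mut, and the calls of these 4 genes in that comparison stayed as they were.

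In the PXDDE group, replicate 1 was high in Got1, the cytosolic aspartate aminotransferase, at 5.73, against 5.62 to 5.64 on the other PXDDE arrays. The same array was low in Ahcy, which clears S-adenosylhomocysteine, at 2.15, against 2.43 to 2.45. DDE replicate 3 was low in Sds, serine dehydratase, at 4.32, against 4.44 to 4.45 on the other DDE arrays. In the control group the gaps were narrow. Tdo2 was at 6.43 on replicate 1, against 6.49 to 6.50. Ahcy was at 2.09 on replicate 2, against 2.12 on each of the others. Aass, the first enzyme of lysine breakdown, was at 5.28 on that array too, against 5.34 to 5.35. Control replicate 4 was high in Mat1a at 5.40, against 5.27 to 5.28, and low in Bckdhb at 5.02, against 5.12 to 5.13.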

How the results depend on the processing

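Of the called members, 16 of 23 in DDE against control, 15 of 22 in PXDDE against DDE and 23 of 31 in PXDDE against control kept direction and call under all 26 alternatives, among them Oat and Cbs against control and Arg1 and Cth in PXDDE against DDE. Counts moved by over 1.5 times only with the scaling. In DDE against control, 2 members were lower with quantile normalisation, median centring, the RMA-like setting and the deposited values, and 32 were higher with median centring. In PXDDE against DDE, 24 were higher with quantile normalisation, the RMA-like setting and the deposited values and 23 with median centring, while 3 were lower with quantile normalisation and the deposited values and 4 with median centring and the RMA-like setting. In PXDDE against control, 4 were lower with quantile normalisation, the RMA-like setting and the deposited values and 3 with median centring.

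With each array left out in turn, called members numbered 20 to 23 in DDE against control (16 to 18 higher, 4 to 5 lower), 21 to 24 in PXDDE against DDE (14 to 17 higher, 7 lower) and 29 to 32 in PXDDE against control (23 to 25 higher, 6 to 7 lower). Log2 changes that were called in the values used here or under the alternative, and that turned in sign or came to 0, were as follows, and the cause was not tested. Changes called under neither are left out. With quantile normalisation they were Asl 0.17, Gpt 0.20 and Bckdhb 0.03 in PXDDE against DDE, and Glud1 0.28, Got1 0.26, Gnmt 0.29 and Aass 0.06 in PXDDE against control. With median centring they were Glud1 0.04, Got1 0.06, Haao 0.22 and Gnmt 0.02 in DDE against control, and Glud1 0.25, Got1 0.28, Gnmt 0.19, Cth 0.07 and Aass 0.22 in PXDDE against control. With the RMA-like setting they were Gpt 0.20 and Bckdhb 0.09 in PXDDE against DDE, and Glud1 0.26, Got1 0.27, Gnmt 0.28 and Aass 0 in PXDDE against control. With the deposited values they were Gpt 0.20, Tdo2 0 and Bckdhb 0.08 in PXDDE against DDE, and Glud1 0.28, Got1 0.22 and Gnmt 0.28 in PXDDE against control. With the mean of probes they were Asl -0.61 and Hgd -0.17 in DDE against control, and Asl -1.11, Hgd -0.11, Kynu -0.10, Gldc -0.12 and Aass 0.14 in PXDDE against control. Replicate numbers did not pair the arrays, since same-numbered arrays deviated together with correlations of -0.368 to 0.132, 1 of 12 over 0.1, and 1 array correlated best with its own number. With the replicate block, 17 members were higher and 4 lower in DDE against control, 14 and 7 in PXDDE against DDE, and 24 and 6 in PXDDE against control. Signal over background limits no member, and 4 arrays a group limit the precision.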

Other observations

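Genes zoned across the liver lobule, partly the same genes as the 37, were counted by their zone. Of 15 genes of the portal side tested, 6 rose and 1 fell in DDE against control, 5 rose and 4 fell in PXDDE against DDE, and 10 rose and 4 fell in PXDDE against control, with a median log2 change of 0.232 in the last. These are 46.7%, 60% and 93.3% called, against 50.3%, 49.9% and 70.9% of all genes. Hsd17b13, a lipid droplet enzyme, was 1.58-fold higher in PXDDE and 1.53-fold higher in DDE against control (adjusted p = 2.44e-08 and 1.41e-07), and the P450 enzyme Cyp2f2 was 1.55-fold higher in DDE against control (adjusted p = 8.16e-06). Pck1 and Arg1, also of the portal side, fell in PXDDE against control, by 0.53 and 0.59 on the log2 scale. Of 14 genes of the central side tested, 6 rose and 4 fell in PXDDE against control and 4 rose and 5 fell in DDE against control. Their called shares were 71.4% and 64.3%, and the difference from all genes was not tested for either side. Cyp1a2, a P450 enzyme, was 5.32-fold higher in PXDDE and 3.60-fold higher in DDE against control (adjusted p = 3.84e-07 and 1.13e-05), and the ammonia channel Rhbg was 1.85-fold and 1.52-fold higher (adjusted p = 6.36e-08 and 4.97e-06). Oat, on the same side, was lower in both groups.

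Further marker lists moved as follows, and their part in the values of the 37 genes was not tested. Over all genes 24% were higher and 26.3% lower in DDE against control. The shares were 20.2% and 29.7% in PXDDE against DDE, and 31.6% and 39.3% in PXDDE against control. Of 9 lymphocyte markers tested, 8 fell in DDE and 9 in PXDDE against control. Of 10 adipocyte markers, 1 rose and 6 fell in DDE and 1 rose and 7 fell in PXDDE against control. Of 5 erythroid markers tested, 4 fell in PXDDE against DDE. Of 12 markers of stellate cells and endothelium, 2 rose and 6 fell in PXDDE against control, and of 7 cholangiocyte markers 3 rose and 1 fell. Of 12 kidney tubule markers 3 passed the filter on dim probes, and 2 of these rose in PXDDE against control.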
